A study of Mus musculus with 38 samples.

Results

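Bdnf, Ntrk2 and Ntrk3 encode brain-derived neurotrophic factor and the receptor kinases TrkB and TrkC. These 3 genes were taken by symbol from the 22401 genes of the tables, and each was read through the coding sequence (CDS) of its longest transcript. For Bdnf, which has many alternative first exons, all 13 of its 5′ UTR segments were followed as well, out of 71102 such segments in all genes. The members were given as a list of names, and all 3 passed the filter on low counts in every comparison.

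BDNF is released from neurons in an activity-dependent way and binds TrkB. The related ligand NT-3 (Ntf3) binds TrkC. Both receptors are made as full-length kinases and, by alternative splicing, as truncated forms that keep the extracellular and membrane parts but carry no kinase domain, and truncated TrkB is known to be abundant in astrocytes. Transcription of Bdnf starts at several promoters, each with its own first exon, largely untranslated, spliced to a common coding exon, and the promoter of exon IV is a standard example of control by neuronal activity.

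The libraries were made by PL-Ribo-seq, in which a biotin ligase labels proteins around it, streptavidin recovers the labelled ribosome complexes, and ribosome-protected fragments (footprints) are sequenced from the input and from the pulldown. Primary cortical neurons from mid-gestation CD-1 mouse embryos carried a doxycycline-inducible lentivirus with TurboID-PSD95, which is directed to dendrites, or with Pan-TurboID, which lacks a signal for localization. All neurons received cycloheximide, which halts elongation, for 2 min and biotin for 30 min per the labels, while the study's methods give a shorter biotin step for DHPG. The comparisons addressed how depolarization, DHPG and depletion of eIF4G2 relate to translation in the whole neuron and in the labelled compartment.

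The KCl experiment held 24 libraries, 3 replicates of input and pulldown for each ligase and state, from neurons at rest or after 1 h in 55 mM KCl, which depolarizes them. Depolarized neurons had been silenced for 2 h with tetrodotoxin and DL-AP5, which block sodium channels and NMDA receptors, and the labels do not say whether resting neurons were silenced too. A separate experiment gave 3 inputs and 3 TurboID-PSD95 pulldowns from neurons silenced in the same way. They were then exposed for 10 min to 100 µM DHPG, which activates the metabotropic glutamate receptors of group I. Per the study's methods, the KCl or DHPG medium was replaced by fresh medium for the biotin step. After KCl this medium again held tetrodotoxin and DL-AP5. Cells were therefore harvested after that step, not at the end of the stimulus. The methods also place the cycloheximide before the biotin was added. How far the footprints reflect the end of the stimulus or the later step cannot be told from these libraries. The knockdown experiment gave 2 replicates each of input and TurboID-PSD95 pulldown from resting and from KCl-depolarized neurons that had received 20 nM siRNA against eIF4G2, a translation initiation factor related to eIF4G1, for 72 h. Neurons with a non-targeting siRNA were not analysed here, so a difference between the knockdown libraries and those of the KCl experiment cannot be told apart from a difference between experiments.

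The 38 libraries held 5906281 to 35643247 counts, and 2048604 to 14646402 counts lay in the coding sequences used. Levels are given as CPM, the usual normalized read count, here with the CDS counts of each library scaled to the same total for all libraries. Mean correlations of a library with the others of its group were 0.86 to 0.97 in the KCl experiment, where depolarized TurboID-PSD95 pulldowns 1 and 2 were lowest at 0.86 each, and 0.96 to 0.99 in the other experiments. Summed pan-neuronal markers lay between 4682 and 9952 CPM in all libraries, microglial markers between 0 and 20.0 CPM and vascular markers between 0.971 and 24.0 CPM. Astrocyte markers summed to 678 to 1275 CPM in resting inputs and 742 to 1405 CPM in depolarized inputs of the KCl experiment, but to only 242 to 274 CPM in the DHPG libraries. Eif4g2 itself stood between 570 and 634 CPM on average in the 4 input groups of the KCl experiment and at 284 and 330 CPM in the 2 knockdown input groups.

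The splice junctions below belong to receptor forms with or without the kinase domain. They are shown because the footprint counts of the 2 forms are compared further on. Lower-case letters are the last 15 bases of the last exon that both forms share, and capitals are the first 15 bases of the form's own exon. All coordinates are mm10, and sequences were read from GRCm38.p6, the same assembly.

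Ntrk2 truncated: agtttggcatgaaagGTTTTGTTTTGTTTC

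Ntrk3 kinase: acaagccagacacatATGTTCAGCACATCA

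Ntrk3 truncated: acaagccagacacatGGGTCTTTTCAAACA

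Bdnf coding start: ATGaccatccttttccttactatggttatt

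The Ntrk2 forms diverge after chr13:58878248-58878262 on the plus strand. The truncated form known as T1 continues at the 38-base coding segment chr13:58932023-58932060. On the minus strand of chromosome 7, the Ntrk3 forms diverge after chr7:78356027-78356041, into chr7:78260284-78260414 (131 bases) for the kinase form and chr7:78304292-78304426 (135 bases) for the truncated form. In the transcript used for Bdnf, translation is annotated to begin at the end of exon I and to include the 21 bases before the common start codon, so its CDS is slightly longer than the common coding part. The Bdnf sequence is the start of the common coding exon at chr2:109723403-109723432, plus strand, with the start codon in capitals.

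Of the members, Ntrk2 had by far the most coding footprints. As CPM divided by the CDS length in kilobases (RPKM), the median over the 38 libraries was 273 for Ntrk2, 73.4 for Bdnf and 50.4 for Ntrk3. The Bdnf CDS (Bdnf-201, ENSMUSG00000048482, chromosome 2) is 774 bases long, against 2466 for Ntrk2 (Ntrk2-201, ENSMUSG00000055254, chromosome 13) and 2478 for Ntrk3 (Ntrk3-201, ENSMUSG00000059146, chromosome 7). Over the 38 libraries, which pool separate experiments, Bdnf had the widest span between lowest and highest library. It was 8.65-fold, against 2.72-fold for Ntrk2 and 2.79-fold for Ntrk3. Within the 24 libraries of the KCl experiment the spans were 2.34-fold for Bdnf, 2.30-fold for Ntrk2 and 2.79-fold for Ntrk3.

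The 3 genes had different orders over the 14 groups. Bdnf was highest in resting TurboID-PSD95 inputs at 88.9 ± 16.7 CPM (SD, n = 3) and lowest in DHPG pulldowns at 12.7 ± 0.267 CPM (n = 3). All 8 groups of the KCl experiment came before the 4 knockdown groups, and the 2 DHPG groups came last. Among the 13 pairs of neighbours in this order, only 3 had ranges that did not overlap: the knockdown resting pulldowns against the knockdown depolarized inputs, these against the knockdown resting inputs, and the DHPG inputs against the DHPG pulldowns.

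Ntrk2 was highest in resting Pan-TurboID pulldowns at 879 ± 119 CPM (n = 3), and the 5 leading groups were all from resting neurons. The lowest group was the knockdown depolarized pulldowns at 382 ± 28.9 CPM (n = 2). Only 2 of the 13 neighbouring pairs did not overlap, the knockdown resting inputs against the DHPG inputs and the knockdown resting pulldowns against the knockdown depolarized pulldowns.

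Ntrk3 ran from 180 ± 24.7 CPM in depolarized Pan-TurboID pulldowns to 89.1 ± 10.2 CPM in resting TurboID-PSD95 inputs (n = 3 each). The 2 pairs without overlap were the depolarized against the resting Pan-TurboID pulldowns and the latter against the DHPG pulldowns. All other neighbours in the Ntrk3 order overlapped.

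**Figure D1:**
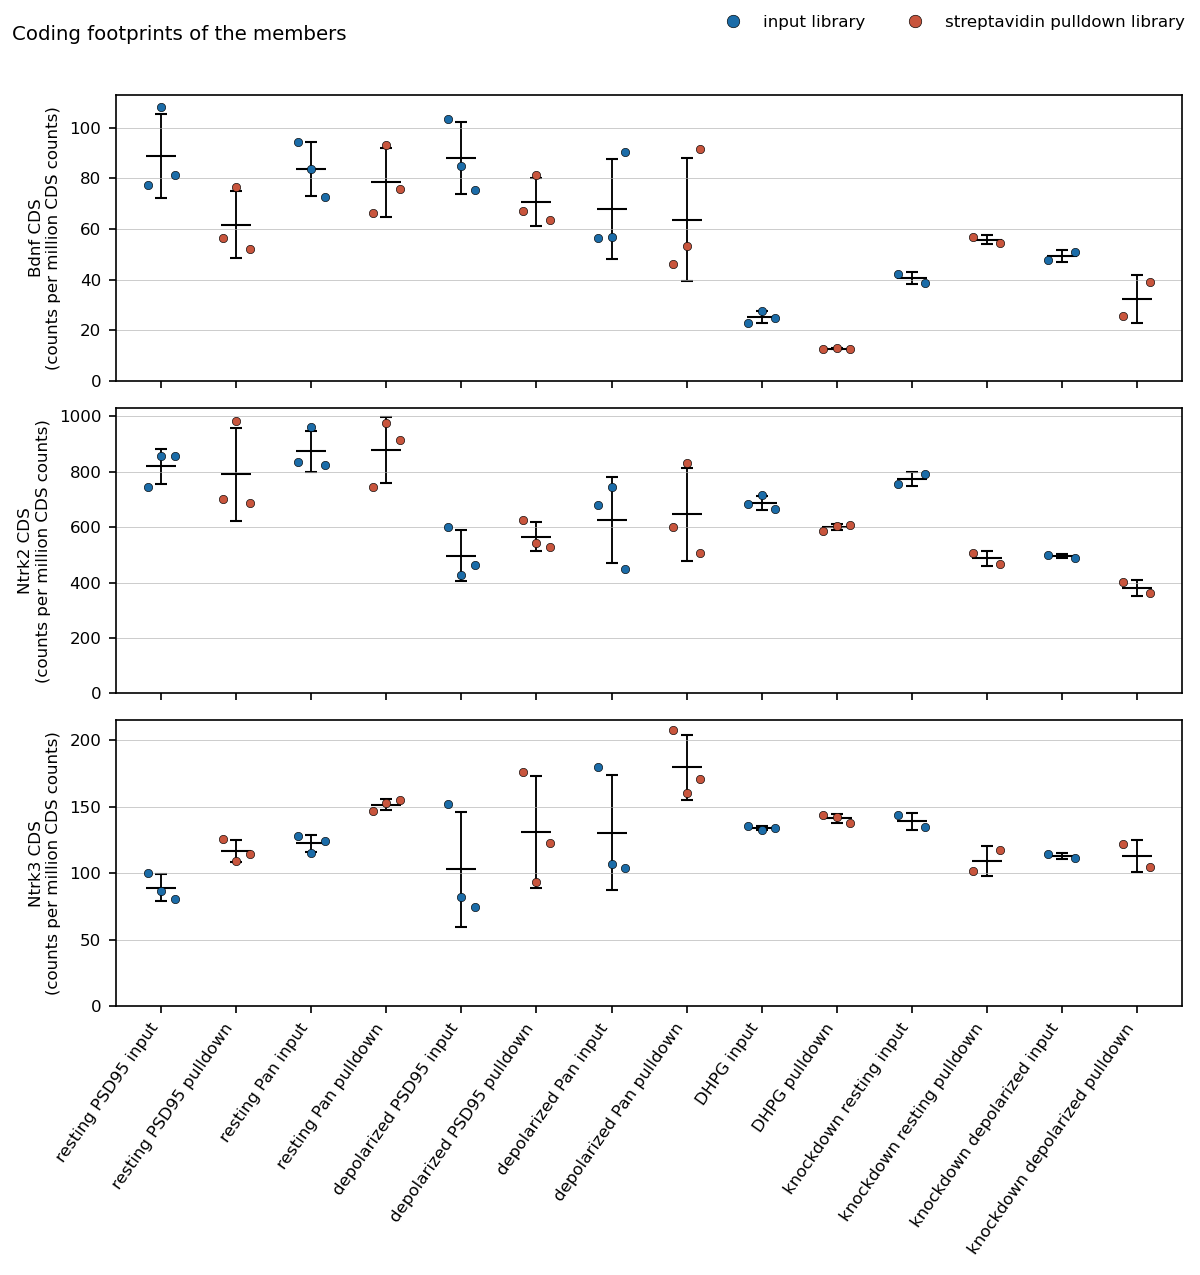
Coding footprints of Bdnf, Ntrk2 and Ntrk3 in each of the 38 libraries (points, in CPM) by group, with the group mean (long bar) and SD (short bars). Bdnf was lowest in the DHPG groups (12.7 and 25.1 CPM on average), Ntrk2 was higher in resting than in depolarized inputs, and Ntrk3 groups overlapped widely.

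The ligand Bdnf was not called between depolarized and resting inputs. The resting TurboID-PSD95 inputs held 77.2, 108 and 81.3 CPM of Bdnf, and the resting Pan-TurboID inputs 94.4, 83.8 and 72.8 CPM. Depolarized inputs held 103, 85.0 and 75.5 CPM with TurboID-PSD95 and 56.4, 56.7 and 90.5 CPM with Pan-TurboID. The groups overlapped, and the lowest values were those of depolarized Pan-TurboID inputs 1 and 2. The log2 fold change was -0.13 (SE 0.17, adjusted p = 0.67 from the quasi-likelihood test of edgeR, adjusted by Benjamini-Hochberg, as for all fold changes here). In the same inputs Npas4, an activity-dependent transcription factor known to act at Bdnf promoters, rose from 67.3 ± 7.3 CPM at rest to 309 ± 98.5 CPM with TurboID-PSD95 and from 53.4 ± 5.3 to 381 ± 53.9 CPM with Pan-TurboID (n = 3 each, log2 fold change 2.55, SE 0.21, adjusted p = 1.5e-09).

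Ntrk2 fell with depolarization. Its resting inputs stood at 744, 855 and 856 CPM with TurboID-PSD95 and at 834, 959 and 825 CPM with Pan-TurboID. Depolarized inputs stood at 600, 428 and 464 CPM with TurboID-PSD95 and at 681, 744 and 450 CPM with Pan-TurboID. The highest depolarized input, at 744.2 CPM, lay just below the lowest resting input, at 744.4 CPM, so the 2 sets of 6 did not overlap. The log2 fold change was -0.56 (SE 0.16, adjusted p = 0.0196), and Ntrk2 was the only member among the 15.4% of 13019 genes that passed in either direction (6.32% were higher and 9.03% lower). In the same inputs, summed markers of GABAergic neurons were 1517 to 2724 CPM at rest and 2183 to 3009 CPM after depolarization, and summed pan-neuronal markers 7379 to 8063 CPM and 5907 to 9952 CPM. Summed markers of the oligodendrocyte lineage were 252 to 574 CPM and 157 to 394 CPM, and those of cycling progenitors 320 to 568 CPM and 225 to 427 CPM. The ranges overlapped for each list, although the GABAergic sum was higher after depolarization in all 6 same-numbered inputs of the same ligase, and the part of these lists in the Ntrk2 difference was not tested. In bulk libraries like these, fewer cells of a type and fewer footprints per cell cannot be told apart, and the p-values measure only the spread between libraries that the labels call replicates.

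The Ntrk2 call in the inputs of the KCl experiment needed replicates 2 and 3. Without replicate 1 of every group the log2 fold change was -0.78 (edgeR adjusted p = 0.0052). Without replicate 2 of every group the log2 fold change was -0.45 (edgeR adjusted p = 0.164), and without replicate 3 it was -0.42 (adjusted p = 0.277). With the inputs of TurboID-PSD95 alone it was -0.70 (adjusted p = 0.0844) and with those of Pan-TurboID alone -0.42 (adjusted p = 0.371). It was also lost, at -0.41 (adjusted p = 0.0654), once the trend of each library with CDS length was removed. The test treats all inputs as independent, although same-numbered inputs of both ligases deviated together. The p-values of KCl responses in the inputs of the KCl experiment may therefore be too small.

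Ntrk3 was spread widely among depolarized inputs. At rest it stood at 100, 86.6 and 80.3 CPM with TurboID-PSD95 and at 128, 115 and 124 CPM with Pan-TurboID. After depolarization the values were 152, 81.8 and 74.4 CPM with TurboID-PSD95 and 180, 107 and 104 CPM with Pan-TurboID. Replicate 1 was the highest depolarized input of both ligases. The ranges overlapped, and the log2 fold change of 0.19 (SE 0.19, edgeR adjusted p = 0.56) did not pass.

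In the pulldowns, none of the 3 members was called between depolarized and resting neurons, at an unadjusted p under 0.05 or in DESeq2, beside 6.59% of genes for TurboID-PSD95 (3.31% higher, 3.28% lower) and 5.03% for Pan-TurboID (1.87% higher, 3.16% lower). For Ntrk2, resting TurboID-PSD95 pulldowns stood at 703, 982 and 685 CPM and depolarized ones at 625, 542 and 528 CPM. These 2 groups of 3 did not overlap, but the log2 fold change of -0.47 (SE 0.23) had an edgeR adjusted p of 0.24. Summed pan-neuronal markers were also lower in these depolarized pulldowns without overlap, at 4973 to 5565 CPM against 6011 to 6787 CPM. The other marker lists overlapped between these groups, and the part of the lists in the Ntrk2 difference was not tested. With Pan-TurboID, Ntrk2 went from 746, 976 and 914 CPM to 599, 832 and 507 CPM, with overlap (log2 fold change -0.38, adjusted p = 0.39).

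Bdnf in resting TurboID-PSD95 pulldowns was at 56.3, 76.6 and 52.2 CPM, and in depolarized ones at 67.1, 81.3 and 63.7 CPM. With Pan-TurboID it was at 66.5, 93.0 and 75.6 CPM at rest and at 46.2, 53.3 and 91.7 CPM after depolarization. Both pairs of groups overlapped, and their log2 fold changes, 0.21 (edgeR adjusted p = 0.68) and -0.26 (adjusted p = 0.63), did not pass. Ntrk3 had log2 fold changes of 0.19 (adjusted p = 0.73) with TurboID-PSD95 and 0.31 (adjusted p = 0.58) with Pan-TurboID.

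Pulldown over input shows whether footprints of a gene are more frequent on the labelled ribosomes than in the whole neuron. None of the members passed for TurboID-PSD95 against both inputs, at rest (31.1% of all genes called) or after depolarization (18% called, 11.2% higher and 6.84% lower), at an unadjusted p under 0.05 or in DESeq2. These shares of all genes fell to 0.121% and 0.129% without replicate 3 of every group. Bdnf had the largest value, -0.44 on the log2 scale at rest (SE 0.22, edgeR adjusted p = 0.12). Input and pulldown libraries of the same number deviated together, and with the replicate number as a block within each condition this fold change was -0.46 and passed (adjusted p = 0.0389). That block, added after the data had been seen, called 42.9% of all genes in the same comparison. For Ntrk2 the values were -0.06 at rest and 0.03 after depolarization, and for Ntrk3 0.19 in both. The difference between depolarized and resting enrichment was 0.34 (SE 0.30) for Bdnf, 0.09 for Ntrk2 and 0.00 for Ntrk3, in a comparison where 0 of 13019 genes were called.

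Set against its own inputs, the Pan-TurboID pulldown had log2 fold changes of -0.05 for Bdnf, 0.08 for Ntrk2 and 0.44 (SE 0.19, edgeR adjusted p = 0.0752) for Ntrk3, where 34.2% of genes were called. Ntrk3 was at 147, 153 and 155 CPM in resting and 208, 161 and 171 CPM in depolarized Pan-TurboID pulldowns, above its own input of the same number in all 6 pairs. Blocking on the replicate number gave 0.46 (adjusted p = 0.0188), or 0.46 (adjusted p = 9.8e-04) with the block within each condition, and without replicate 1 the fold change was 0.57 (adjusted p = 0.0058). With the block within each condition, 45% of all genes were called. TurboID-PSD95 enrichment beyond that of Pan-TurboID was -0.33 (SE 0.25) for Bdnf, 0.03 for Ntrk2 and -0.03 for Ntrk3. Only 0.00768% of genes were called there, and no member had an unadjusted p under 0.05.

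Pulldown over input followed CDS length across genes, and the members differ in length. At rest with TurboID-PSD95, the median log2 fold change was -0.69 for genes with a CDS under 1 kilobase, the class of Bdnf, 0.15 for 1 to 3 kilobases, the class of both receptors, and 0.46 for longer ones. With this trend removed, the resting TurboID-PSD95 values were -0.06 for Bdnf, -0.08 for Ntrk3 and -0.32 for Ntrk2 (edgeR adjusted p = 0.23).

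**Figure D2:**
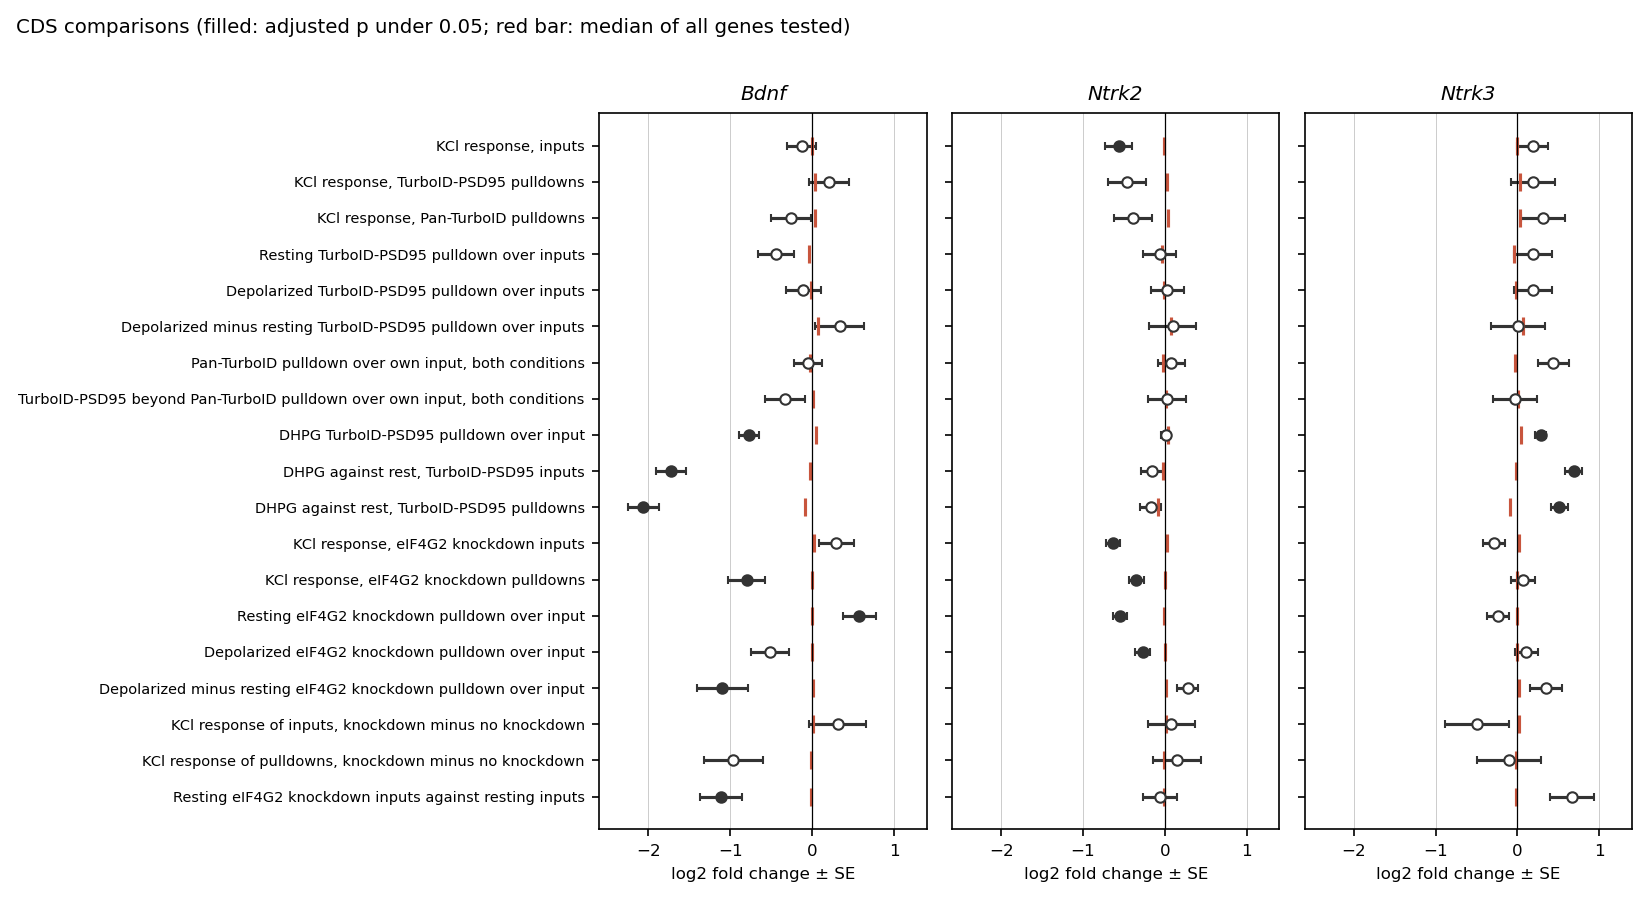
Log2 fold changes of Bdnf, Ntrk2 and Ntrk3 CDS counts in each comparison (points, with bars of 1 SE), with filled points where the edgeR adjusted p was under 0.05. Bdnf had log2 fold changes of -1.72 and -2.06 between DHPG and resting libraries, while Ntrk2 fell with KCl in the inputs of both the KCl and the knockdown experiment.

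DHPG libraries differed from resting libraries most in the ligand. Bdnf stood at 23.0, 27.6 and 24.8 CPM in DHPG inputs, against 77.2, 108 and 81.3 CPM in resting TurboID-PSD95 inputs. Its DHPG pulldowns held 12.48, 12.98 and 12.57 CPM, against 56.3, 76.6 and 52.2 CPM at rest. Neither pair of groups overlapped. The log2 fold change was -1.72 in inputs (SE 0.18, edgeR adjusted p = 4.5e-06) and -2.06 in pulldowns (SE 0.19, adjusted p = 4.3e-07).

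Ntrk3 was higher in the DHPG libraries than in resting TurboID-PSD95 libraries, at 135, 133 and 134 CPM in inputs and 144, 142 and 138 CPM in pulldowns. Resting TurboID-PSD95 inputs held 80.3 to 100 CPM and resting pulldowns 109 to 126 CPM, without overlap. The log2 fold changes were 0.69 (SE 0.10, edgeR adjusted p = 9.7e-05) in inputs and 0.51 (SE 0.10, adjusted p = 6.0e-04) in pulldowns. Resting Pan-TurboID libraries were not part of these tests. They held 115 to 128 CPM of Ntrk3 in inputs, nearer to but below the DHPG inputs. Their pulldowns held 147 to 155 CPM, above the DHPG pulldowns. Ntrk2, at 682, 714 and 664 CPM in DHPG inputs, was below all 3 resting TurboID-PSD95 inputs but was not called against them (log2 fold change -0.15, adjusted p = 0.40), nor was it in pulldowns (-0.17, adjusted p = 0.30).

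Of all genes, 32.8% were called between DHPG and resting inputs and 47.7% between the pulldowns (26% lower), so 2 of 3 members is read against a broad difference. The DHPG and resting libraries came from different experiments, and treatment and experiment cannot be told apart. Npas4 was at 8.9 ± 1.0 CPM in DHPG inputs against 67.3 ± 7.3 CPM in resting TurboID-PSD95 inputs (log2 fold change -2.81, SE 0.22, edgeR adjusted p = 3.3e-07). The NT-3 gene Ntf3, a low-count gene, was higher (log2 fold change 2.24, adjusted p = 0.0032). Summed astrocyte markers, given above, were also lower in the DHPG libraries. Other lists also stood apart without overlap from the resting TurboID-PSD95 libraries. Pan-neuronal markers were higher, at 9287 to 9487 CPM against 7379 to 8063 CPM in inputs and at 7373 to 7406 CPM against 6011 to 6787 CPM in pulldowns. Markers of the oligodendrocyte lineage (60.2 to 67.2 CPM against 257 to 574 CPM in inputs) and of cycling progenitors (101 to 111 CPM against 323 to 568 CPM) were lower, in pulldowns as well. In pulldowns, excitatory neuron markers were lower too, at 780 to 849 CPM against 1013 to 1362 CPM, and so were GABAergic markers, at 1634.7 to 1689 CPM against 1848 to 2859 CPM. The part of these lists in the differences was not tested.

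Within the DHPG experiment, Bdnf was lower in pulldowns than in inputs in all 3 replicates (log2 fold change -0.77, SE 0.12, edgeR adjusted p = 1.4e-05). Ntrk3 was higher (0.28, SE 0.07, adjusted p = 6.1e-04) and Ntrk2 was at 0.01. Replicates differed by little more than counting noise in DHPG inputs (chi-square per degree of freedom 1.47 to 1.86, and 2.76 to 8.43 in the pulldowns, against 8.27 to 44.8 in the KCl experiment). The study's methods call the PL-Ribo-seq replicates biological, and the labels do not say whether those with DHPG were separate cultures. Here 79.8% of genes were called (40.5% higher), and the medians by CDS length were -1.07 under 1 kilobase, 0.30 for 1 to 3 kilobases and 0.92 above. With this trend removed, Ntrk2 was at -0.48 (SE 0.05, edgeR adjusted p = 3.6e-07), Bdnf at -0.16 (adjusted p = 0.25) and Ntrk3 at -0.21 (adjusted p = 0.0073), and Ntrk3 lost its call with scaling by CDS totals alone (0.07, adjusted p = 0.29).

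In neurons with less eIF4G2, Ntrk2 again fell with depolarization. Knockdown inputs held 756 and 790 CPM of Ntrk2 at rest and 499 and 490 CPM after depolarization (log2 fold change -0.63, SE 0.09, edgeR adjusted p = 7.8e-06). Knockdown pulldowns held 507 and 468 CPM at rest and 402 and 361 CPM after depolarization (-0.35, SE 0.09, adjusted p = 0.0064). Neither pair overlapped. Replicates of the knockdown groups differed by a chi-square per degree of freedom of 2.79 to 4.50, against 8.27 to 44.8 in the KCl experiment. The p-values measure only this spread, and the labels do not say whether these replicates were separate cultures. The Ntrk2 response in knockdown inputs differed from that without knockdown by 0.08 (SE 0.29, adjusted p = 1, with 0.00758% of genes called), and in pulldowns by 0.15 (SE 0.29, adjusted p = 0.92). The pulldown call was lost without resting pulldown 1 (-0.29, adjusted p = 0.0538) or depolarized pulldown 2 (-0.27, adjusted p = 0.0550).

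Marker lists moved with depolarization in the knockdown libraries too. In knockdown inputs, summed pan-neuronal markers were 8576 and 8816 CPM at rest and 6857 and 6705 CPM after depolarization, astrocyte markers 720 and 740 CPM against 968 and 918 CPM, GABAergic markers 657 and 660 CPM against 816 and 812 CPM, and markers of cycling progenitors 322 to 340 CPM against 445 to 447 CPM. In knockdown pulldowns, pan-neuronal markers were 6612 and 6472 CPM at rest and 4682 and 4733 CPM after depolarization, astrocyte markers 582 to 717 CPM against 829 to 1031 CPM, GABAergic markers 678 to 739 CPM against 839 to 958 CPM, and cycling progenitor markers 510 to 540 CPM against 727 to 825 CPM. Excitatory neuron markers were higher after depolarization in inputs (1092 to 1112 CPM at rest against 1121 to 1197 CPM). They were lower in pulldowns (875 to 937 CPM at rest against 858 to 864 CPM). The low microglial sums in both fractions, and vascular sums in pulldowns, were higher after depolarization. None of these ranges overlapped between rest and depolarization, and the part of these lists in the Ntrk2 and Bdnf differences was not tested.

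Bdnf behaved differently in the 2 fractions of the knockdown experiment. In inputs it stood at 42.2 and 38.8 CPM at rest and at 47.7 and 51.0 CPM after depolarization, which was higher in both but not called (log2 fold change 0.30, SE 0.21, edgeR adjusted p = 0.37). In pulldowns it stood at 56.9 and 54.6 CPM at rest and at 25.6 and 39.0 CPM after depolarization. The pulldown groups did not overlap, and Bdnf fell (-0.80, SE 0.23, adjusted p = 0.0122). This call was lost without depolarized pulldown 1, the lowest of the 4 (-0.53, adjusted p = 0.137).

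At rest, Bdnf was therefore above its inputs in knockdown pulldowns (log2 fold change 0.58, SE 0.21, edgeR adjusted p = 0.0249), and after depolarization below them (-0.52, SE 0.23, adjusted p = 0.0659). The difference of these, depolarized minus resting, was -1.10 (SE 0.31, adjusted p = 0.0452), where 3.77% of 12239 genes were called (1.5% higher, 2.27% lower). This comparison was added after the data had been seen. The call of the difference was lost on leaving out any of 7 of the 8 libraries in turn, with values from -0.81 to -1.15 and adjusted p-values from 0.0641 to 0.244. The eighth, depolarized pulldown 2, gave -1.40. Each of these fits, like every other that leaves out a knockdown library, has a group of 1 library whose spread is assumed to be that of the other groups. In the KCl experiment the corresponding difference was 0.34 (SE 0.30). The response of Bdnf to KCl in pulldowns, with minus without knockdown, was -0.97 (SE 0.36, unadjusted p = 0.013, adjusted p = 0.37).

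The resting enrichment of Bdnf in knockdown pulldowns was lost without either resting input (0.63, adjusted p = 0.0998, and 0.52, adjusted p = 0.187, in edgeR), without resting pulldown 1 (0.53, adjusted p = 0.109), or with scaling by CDS totals alone (0.46, adjusted p = 0.0704). Genes with a CDS under 1 kilobase had medians of -0.75 at rest and -0.87 after depolarization in these comparisons. Bdnf lay above both.

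Counts of members called in the knockdown experiment are read against 19.3% of genes for KCl in inputs (8.96% higher, 10.3% lower; 1 of 3 members), 22.2% in pulldowns (2 of 3), 45.5% for pulldown over input at rest (23.4% lower; 2 of 3) and 48.8% after depolarization (1 of 3). Ntrk2 was lower in pulldowns than in inputs at rest (log2 fold change -0.55, SE 0.09, edgeR adjusted p = 1.3e-05) and after depolarization (-0.27, SE 0.09, adjusted p = 0.0166). The depolarized value lost its call without depolarized input 1 (-0.26, adjusted p = 0.0837), input 2 (-0.29, adjusted p = 0.0519) or pulldown 2 (-0.18, adjusted p = 0.135). Ntrk3 stood at 144 and 134 CPM in resting and 115 and 111 CPM in depolarized knockdown inputs, without overlap (-0.28, adjusted p = 0.15). Its pulldowns, at 102 and 117 CPM at rest and 122 and 105 CPM after depolarization, overlapped.

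Resting knockdown inputs had less Bdnf than resting TurboID-PSD95 inputs without siRNA (log2 fold change -1.11, SE 0.25, edgeR adjusted p = 0.0111), in a comparison of different experiments with 3.9% of genes called. The call was lost with only 1 of the resting knockdown inputs (-1.15, adjusted p = 0.148, and -1.03, adjusted p = 0.229). Ntrk2 was at -0.06 and Ntrk3 at 0.67 (adjusted p = 0.19), the latter passing without replicate 1 of the KCl experiment (0.74, adjusted p = 0.0170). Markers of GABAergic neurons (5 genes, none at 0 in these libraries) summed to 657 and 660 CPM in these knockdown inputs, below the 1561 to 2576 CPM of the resting TurboID-PSD95 inputs without overlap, and their part in the Bdnf difference was not tested. Pan-neuronal markers (8576 to 8816 against 7379 to 8063 CPM) and the low microglial markers (9.74 to 10.4 against 1.30 to 3.82 CPM) were higher without overlap. Oligodendrocyte lineage markers (189 to 197 against 257 to 574 CPM) were lower without overlap. The part of these lists was not tested either. Astrocyte markers summed to 720 to 740 CPM, within the range of the resting inputs. Excitatory neuron, vascular and cycling progenitor sums overlapped with those of the resting inputs.

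Each first exon of Bdnf belongs to transcripts from its own promoter. Together the first exons held 8021 counts over all libraries, against 13235 in the CDS. Exon I (chr2:109674700-109675336) held 2965 counts, 37.0% of the total, and exon IV (chr2:109692436-109692774) 2559, or 31.9%. Exon VI (chr2:109693563-109693909) held 16.8%, exon II (chr2:109675897-109676395) 13.5% and exon III 0.81%. Exons V, VII and VIII had no count in any library, but 5′ UTR segments of different length and accessibility to footprints do not measure transcript levels. An antisense gene, Gm45346, overlaps exons I and II, and its own segments there held 78 and 39 counts.

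Exon I varied strongly between replicates. In resting inputs it stood at 15.6, 45.8 and 14.8 CPM with TurboID-PSD95 and at 19.21 and 31.46 CPM in replicates 1 and 2 with Pan-TurboID, where replicate 3 was the lowest of the 6, so replicate 2 was highest with both ligases. Depolarized inputs stood at 24.7, 23.6 and 34.2 CPM and at 24.7, 9.59 and 41.9 CPM, overlapping with rest (log2 fold change 0.22, SE 0.41).

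Exon IV was at 11.5, 18.5 and 17.4 CPM in resting TurboID-PSD95 inputs and at 18.1, 20.0 and 24.0 CPM in resting Pan-TurboID inputs. After depolarization it was at 9.37, 32.1 and 27.9 CPM and at 18.5, 10.4 and 35.0 CPM. The lowest and the highest of the 12 inputs were both depolarized libraries, and the log2 fold change was 0.32 (SE 0.40). The median over all 5′ UTR segments was 0.21 in this comparison, that of exon II 0.32 and that of exon VI -0.27. None of the 7 Bdnf segments that passed the filter had an unadjusted p under 0.05 in edgeR, beside 0.297% of 28248 segments called.

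In TurboID-PSD95 pulldowns, exon IV stood at 3.63, 5.85 and 5.37 CPM at rest and at 2.43, 17.3 and 15.5 CPM after depolarization. Depolarized replicate 1 was the lowest of all and replicates 2 and 3 were the highest. The log2 fold change of 1.30 (SE 0.61, unadjusted p = 0.0353, edgeR adjusted p = 0.34) did not pass, beside a median of 0.68 over all segments and 0.191% called. No Bdnf segment had an unadjusted p under 0.05 in Pan-TurboID pulldowns (0.0956% of segments called).

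Knockdown inputs gave the clearest separation of exon IV by KCl. It was at 8.19 and 10.6 CPM at rest and at 27.7 and 30.5 CPM after depolarization, without overlap. The log2 fold change of 1.64 (SE 0.46) had an edgeR adjusted p of 0.0543, just above the threshold, beside a median of 0.51 over all segments and 2.63% called. It passed with the likelihood ratio test (adjusted p = 0.0089) and when any of the 4 pulldown libraries was left out of the fit (9.4e-04 to 0.0093), but not without any of the 4 inputs, when the fold change was 1.46 to 1.83 and the adjusted p was 0.308 to 0.658. Exon II went from 2.94 and 1.78 to 7.25 and 11.8 CPM (2.01, SE 0.85, adjusted p = 0.23), exon VI from 3.86 and 4.96 to 8.03 and 17.0 CPM (1.48, adjusted p = 0.25), and exon I stayed between 11.3 and 17.9 CPM (0.05).

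Between DHPG and resting inputs the first exons were lower, as was the CDS. Exon I (log2 fold change -1.82, edgeR adjusted p = 0.0172), exon IV (-2.38, adjusted p = 7.3e-04) and exon VI (-2.42, adjusted p = 0.0013) passed, beside 7.61% of segments called and a median of -0.37. Exon IV was at 2.86, 2.79 and 2.75 CPM in the DHPG inputs, below every resting input. Exon II did not pass (-1.25, adjusted p = 0.0877). In pulldowns exons I (-2.22, adjusted p = 0.0104), II (-1.77, adjusted p = 0.0442) and IV (-2.36, adjusted p = 0.0044) and the 21-base segment before the common start codon (-3.40, adjusted p = 0.0369) passed, beside 5.79% of segments. As above, treatment and experiment cannot be told apart.

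**Figure D3:**
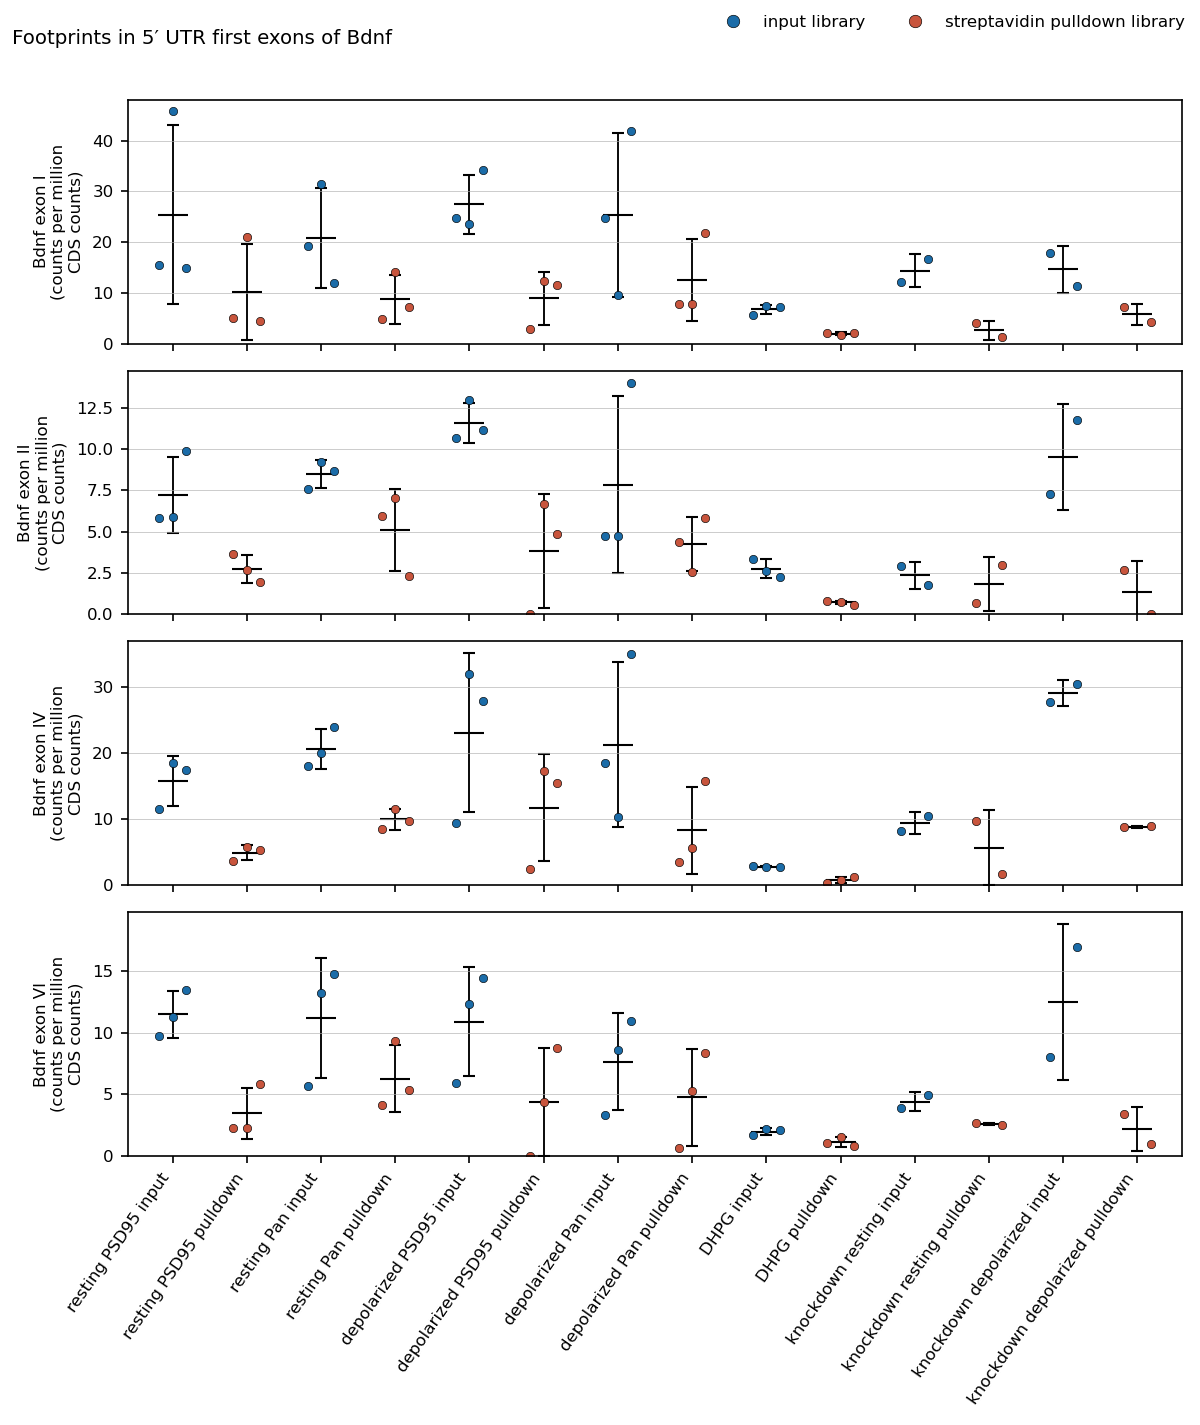
Footprints in the 5′ UTR first exons I, II, IV and VI of Bdnf in each library (points, in CPM), with group mean (long bar) and SD (short bars). Exon IV stood at 27.7 and 30.5 CPM in depolarized and 8.19 and 10.6 CPM in resting knockdown inputs, whereas resting and depolarized inputs of the KCl experiment overlapped.

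The ratio of 5′ UTR to CDS footprints rose with depolarization for Ntrk2. Its denominator is the CDS count that was called lower in the same inputs. The ratio is therefore not independent of that fall and does not by itself show more 5′ UTR footprints. Over all libraries, Ntrk2-201 held 6889 counts per 100 bases in its 5′ UTR against 6487 in its CDS and 20.4 in its 3′ UTR. For Ntrk3-201 these densities were 1118, 1192 and 1.36, and for Bdnf-201, whose 5′ UTR is exon I, 465, 1710 and 1.89. Because a footprint is counted at its 5′ end, ribosomes at the annotated start codon are counted in the 5′ UTR. For Bdnf-201, ribosomes at the common start codon can instead be counted in the coding bases annotated before it. Its ratio is therefore not quite the same measure as that of the receptors.

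Per 100 CDS counts, the Ntrk2 5′ UTR held 28.7 to 44.3 counts in the 6 resting inputs (median 35.0) and 37.1 to 110 in the 6 depolarized inputs (median 62.0). The highest depolarized inputs were TurboID-PSD95 replicate 2 at 110 and Pan-TurboID replicate 3 at 89.7, and the ranges overlapped. The same ratio over all genes was 19.9 to 29.0 at rest and 20.3 to 38.03 after depolarization. The log2 ratio of Ntrk2 was higher by 0.81 after depolarization (means -0.68 ± 0.62 and -1.49 ± 0.25, SD, n = 6 each, exact two-sided permutation test, p = 0.0108, Benjamini-Hochberg adjusted p = 0.0455 over 6 tests).

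Relative to all genes of the same library, the Ntrk2 difference was 0.56 (exact permutation p = 0.0152, adjusted p = 0.0455), and it was 0.60 with TurboID-PSD95 and 0.53 with Pan-TurboID. For Bdnf the differences were 0.40 (adjusted p = 0.41) and, relative to all genes, 0.15 (adjusted p = 0.84), and for Ntrk3 -0.03 (adjusted p = 0.91) and -0.28 (adjusted p = 0.41). This measure was chosen after the values had been seen. Same-numbered inputs of both ligases deviated together, so the 6 libraries of a condition are not fully independent and these p-values may be too small. With any 1 replicate number left out, the Ntrk2 difference stayed between 0.67 and 0.99, but 4 libraries against 4 allow no exact permutation p below 0.0286, and the adjusted p was 0.114 to 0.171.

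The knockdown inputs showed the same order for Ntrk2, with 31.8 and 31.6 counts per 100 CDS counts at rest and 71.6 and 84.2 after depolarization, while all genes went from 18.3 in both to 25.8 and 27.2. A 5′ UTR segment of Ntrk2 (chr13:58807697-58808013) rose there by 0.84 on the log2 scale (SE 0.21, edgeR adjusted p = 0.0283), where the CDS fell by 0.63 and the median over all 5′ UTR segments was 0.51. In the inputs of the KCl experiment that segment was at 0.09 (SE 0.36), below the median of 0.21 over all segments. Resting pulldowns had lower ratios, 9.97 to 12.97 for Ntrk2 against 6.05 to 11.5 for all genes. The 6 depolarized pulldowns spread from 8.94 to 45.6 for Ntrk2 (median 19.5), and the highest, TurboID-PSD95 replicate 2, lay above every resting input.

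**Figure D4:**
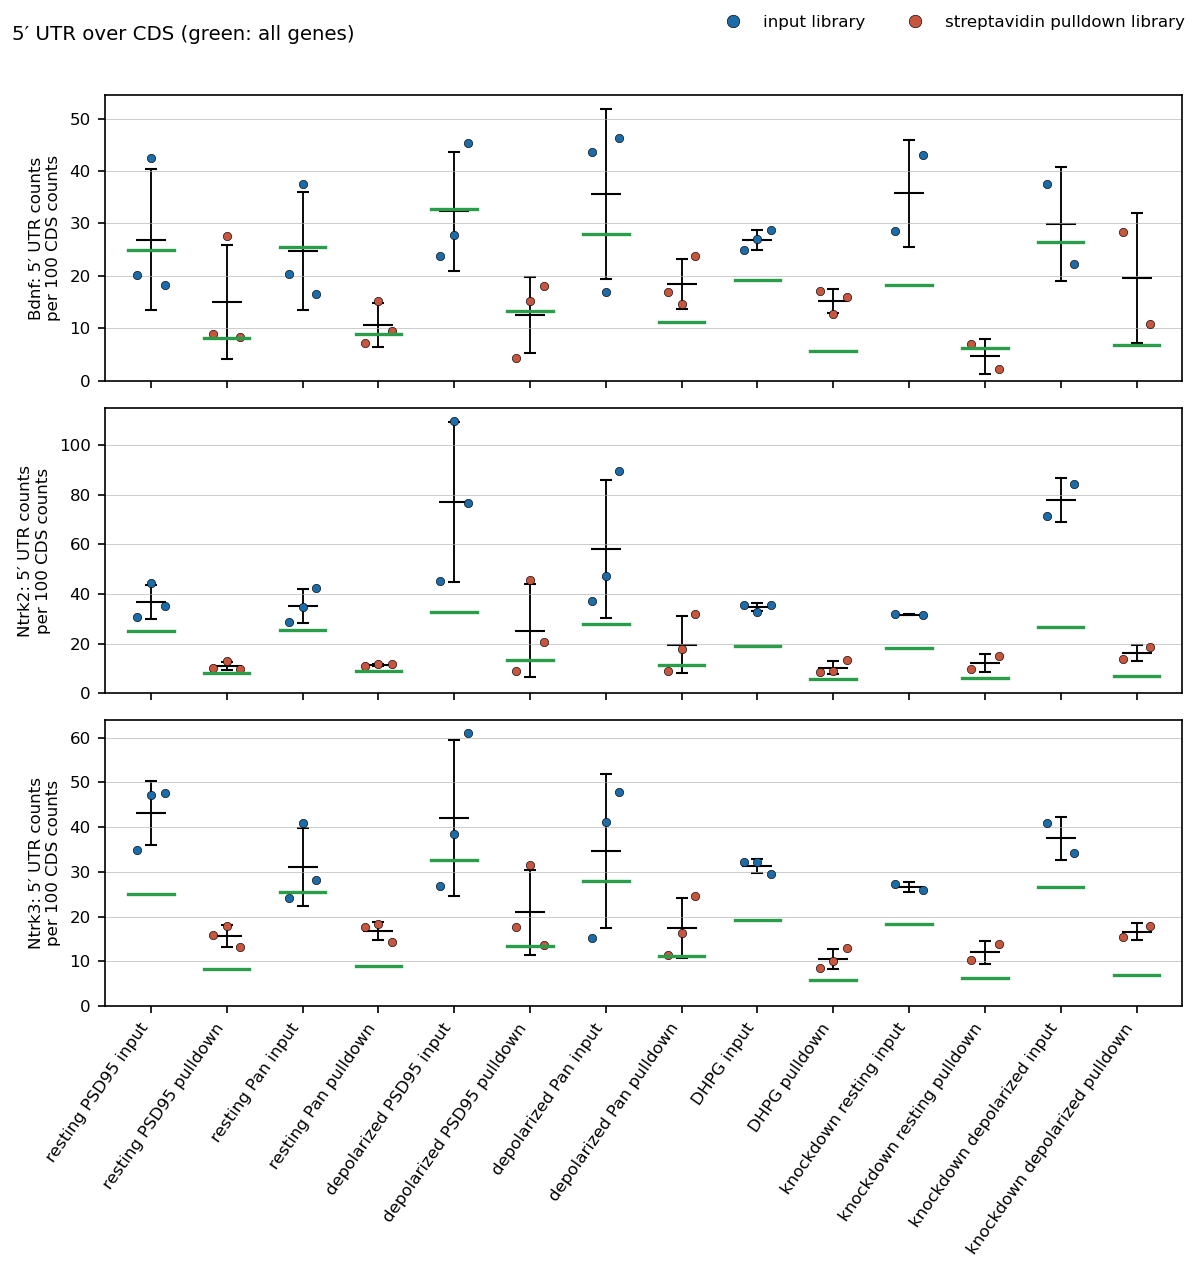
Counts in the 5′ UTR per 100 counts in the CDS of the longest transcript of Ntrk2, Bdnf and Ntrk3, and of all genes, in each library (points), with group mean (long bar) and SD (short bars). The Ntrk2 ratio rose from a median of 35.0 in resting to 62.0 in depolarized inputs, and all pulldown groups had lower means than their inputs.

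Bdnf first exons together, set against the CDS, were 53.8 to 88.2 counts per 100 CDS counts in resting inputs (median 72.2) and 49.0 to 117 in depolarized inputs (median 93.6), with overlap. Knockdown inputs went from 64.8 and 87.5 at rest to 128 and 138 after depolarization, without overlap, and this was not tested. Resting pulldowns had 26.1 to 45.3 and depolarized ones 7.97 to 63.8. Knockdown pulldowns went from 29.8 and 15.6 at rest to 86.6 and 36.1 after depolarization.

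Kinase forms made up most of the footprints that could be assigned to a receptor form. The kinase part of the Ntrk2 CDS, 1073 bases found only in forms with the kinase, held 71.1 counts per base over all libraries, against 60.1 in the 1393 bases shared by both forms and 2.18 in the 209 bases found only in truncated forms. These 209 bases are segments of different truncated transcripts that no single one carries together. The 38-base T1 segment alone held 403 of the 455 truncated counts, or 10.6 per base. Footprints are counted at their 5′ ends, so ribosomes on the first bases of a tail can be counted in the shared part. The last bases before its stop codon can hold few counts. Both can lower the count of so short a segment. For Ntrk3, the kinase part (1010 bases) held 9.69 counts per base, the shared part (1585 bases) 12.5 and the truncated tail (254 bases) 3.13.

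The log2 ratio of kinase to shared counts per base for Ntrk2 was -0.83, -0.72 and -0.86 in resting TurboID-PSD95 inputs and -0.63, -0.23 and -0.64 in resting Pan-TurboID inputs. In resting pulldowns it was 0.43, 0.53 and 0.39 with TurboID-PSD95 and 0.21, 0.85 and 0.33 with Pan-TurboID. The 6 pulldowns lay above the 6 inputs without overlap, by 1.11 on average (0.46 ± 0.22 against -0.65 ± 0.23, SD, exact two-sided permutation test, p = 0.0022, adjusted p = 0.0173 over 8 tests). Each set of 6 holds 3 replicate numbers with both ligases, and same-numbered libraries deviated together, so the libraries are not fully independent, the permutation p-values of the receptor forms may be too small, and 3 numbers against 3 could not pass.

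Ntrk3 moved the same way. Its ratio averaged -0.28 ± 0.22 in resting pulldowns and -0.95 ± 0.46 in resting inputs (SD, n = 6 each), a difference of 0.67 (exact permutation p = 0.0087, adjusted p = 0.0346) that was positive in 6 of 6 pairs. The ranges, -0.55 to 0.04 and -1.64 to -0.41, overlapped, and with segments under 60 bases left out the adjusted p was 0.0519. With a replicate number left out, both receptor differences kept their sign, from 1.08 to 1.14 for Ntrk2 and from 0.55 to 0.84 for Ntrk3, and no adjusted p passed (0.114 to 0.457) in groups of 4, where the exact permutation p cannot go below 0.0286.

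Most genes shifted their footprints in the same direction. For 6358 genes, the ratio of counts in exons after the middle of the CDS to those before it was higher in resting pulldowns than in resting inputs by a median of 0.86 (log2), and 93.2% of genes were above 0. The Ntrk2 kinase difference was at the 63.2th percentile of these genes and that of Ntrk3 at the 38.6th, so neither stood apart. By the ratio after to before the middle of its own CDS, Ntrk2 was at percentile 51.8 and Ntrk3 at 24.5. In DHPG libraries the Ntrk2 kinase ratio rose from 0.41, 0.26 and 0.32 in inputs to 1.36, 1.31 and 1.46 in pulldowns, beside a median of 1.16 for all genes. Resting knockdown libraries showed little difference for Ntrk2, with -0.10 and -0.26 in inputs and -0.08 and -0.05 in pulldowns, where the median over all genes was 0.89. The Ntrk2 difference of 0.11 was at percentile 18.7 of the genes. Ntrk3 likewise showed little difference there (-0.09, percentile 12.6).

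**Figure D5:**
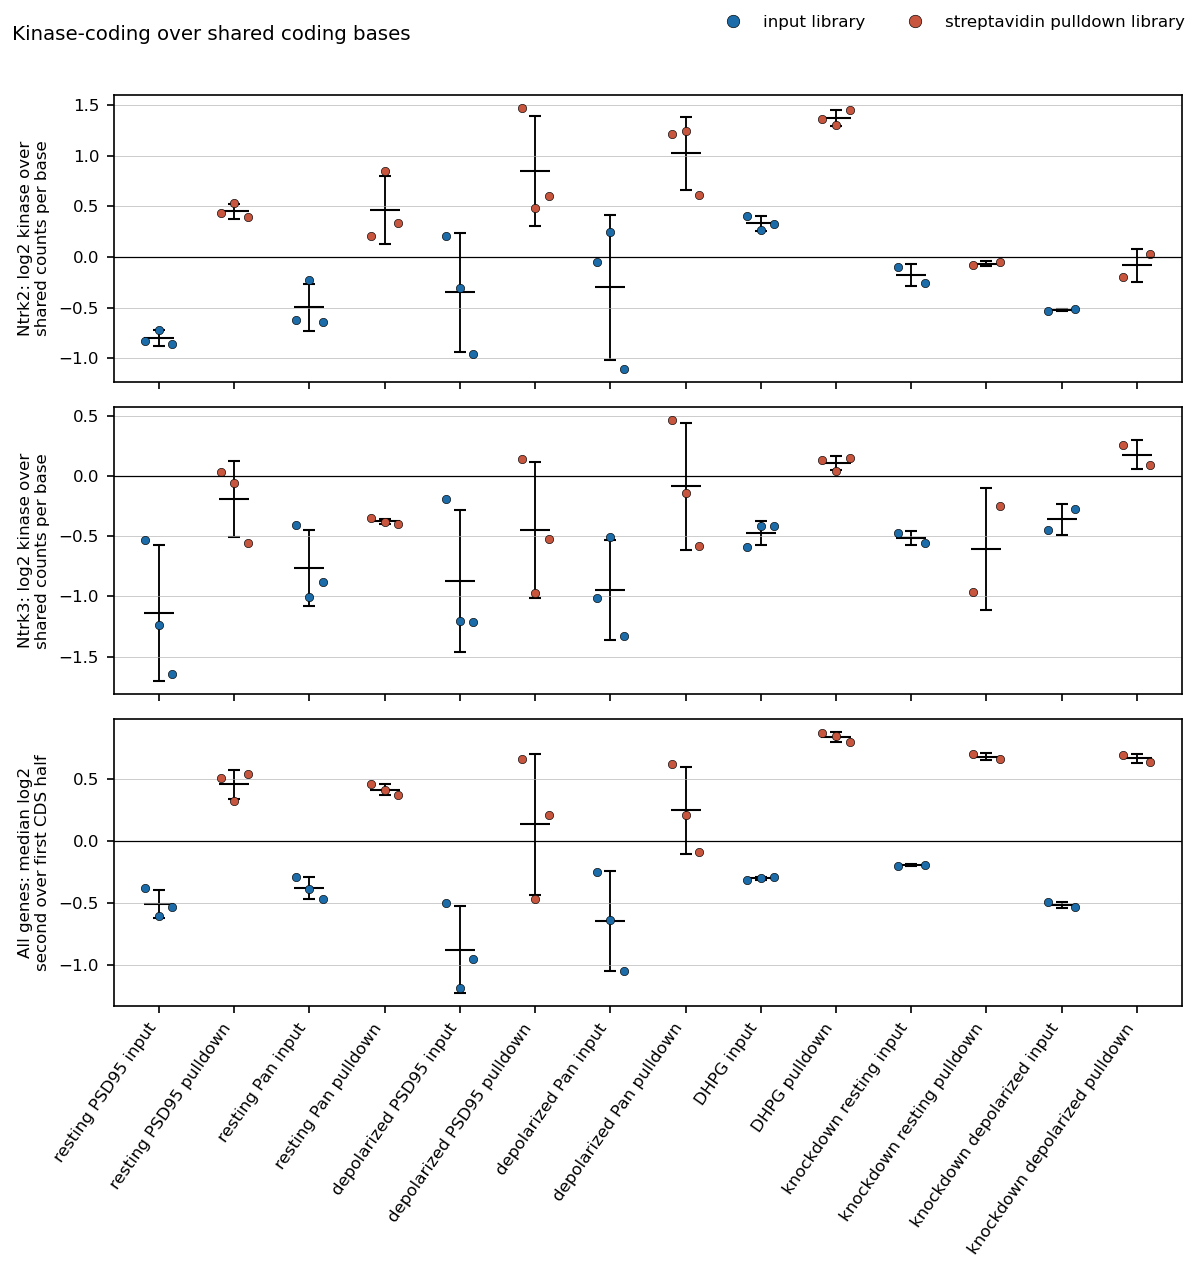
Log2 ratio of footprint counts per base in the kinase part to the part shared by both forms of Ntrk2 and Ntrk3, and the median over genes of the ratio after to before the middle of the CDS, in each library (points), with group mean (long bar) and SD (short bars). The 6 resting pulldowns lay above the 6 resting inputs for Ntrk2, as did the median over genes, while knockdown resting libraries of Ntrk2 lay close together.

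Depolarization gave no called change in receptor form. The Ntrk2 kinase ratio of inputs was higher by 0.32 after depolarization (exact permutation p = 0.229, adjusted p = 0.459) and that of Ntrk3 by 0.04 (adjusted p = 0.88). Over all genes the ratio after to before the middle of the CDS had a median difference of -0.31 here, with 22.6% of genes above 0, and the 2 kinase differences were at percentiles 93.7 and 80.3 of the genes. Kinase over shared is a different measure from that ratio. By the ratio after to before the middle of its own CDS, Ntrk2 was at percentile 91.9 and Ntrk3 at 57.7. The truncated tail of Ntrk3 relative to the shared part was lower by 1.11 in depolarized inputs (exact permutation p = 0.0433, adjusted p = 0.115), and it was lower in 6 of 6 same-numbered pairs, by 1.86 with TurboID-PSD95 and 0.35 with Pan-TurboID. Depolarized TurboID-PSD95 inputs 1 and 2 held 1 truncated count each, and numbers were not found to pair resting with depolarized libraries across genes. That of Ntrk2 was at -0.08 with TurboID-PSD95 and 2.20 with Pan-TurboID, where resting input 2 held 0 truncated counts and its ratio of -9.63 is set by the pseudocount. Pooled over both ligases the value was 1.06 (exact permutation, adjusted p = 0.50), and 0.43 without replicate number 2.

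The wider neurotrophin system was followed as a list of 77 genes, members included, and 75 were tested in the KCl experiment. In inputs, 3 were higher and 21 lower after depolarization, beside 6.32% and 9.03% of all genes, with a median log2 fold change of -0.24 against -0.01 over all genes. The other ligands were close to the detection limit, and of 3 ligands tested none was called. Ntrk2 was the only receptor of 4 that was called. Among sorting receptors and partners, Slitrk5, a TrkB co-receptor (log2 fold change -1.28, edgeR adjusted p = 3.7e-06), and Sorcs1 (-0.64, adjusted p = 0.047) were lower.

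Of 10 proteases and carriers, which process or transport the BDNF precursor, Furin (-1.39, SE 0.27, edgeR adjusted p = 7.6e-04), Pcsk6 (-1.18, adjusted p = 0.0035) and Cadps2 (-0.69, adjusted p = 0.0060) were lower. Plat, which encodes tissue plasminogen activator, was higher (0.71, adjusted p = 0.0025).

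Signalling genes downstream of Trk receptors were lower in 12 of 38 cases and higher in none, beside 9.03% lower and 6.32% higher over all genes. They included the adaptors Shc3 (-1.20, edgeR adjusted p = 1.5e-04) and Frs2 (-0.97, adjusted p = 0.0021), the exchange factor Rapgef1 (-1.03, adjusted p = 2.2e-05) and the kinases Akt1 (-0.71, adjusted p = 0.0031) and Braf (-0.60, adjusted p = 0.0071). Of 13 transcription factors tested, Npas4 and Bhlhe40 (0.96, adjusted p = 0.033) were higher, and 3 were lower, among them Carf (-1.04, adjusted p = 0.0376) and Mef2d (-0.47, adjusted p = 0.0314).

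With KCl in the pulldowns, 1 list gene was higher and 4 lower with TurboID-PSD95 (3.31% and 3.28% of all genes), and 2 were higher and 5 lower with Pan-TurboID (1.87% and 3.16%). Npas4 was higher and Furin, Rapgef1 and Slitrk5 were lower in each of these. Knockdown inputs had 3 higher and 19 lower of 73 tested, with a median of -0.20 against 0.02 for all genes (8.96% higher and 10.3% lower), and knockdown pulldowns 7 higher and 15 lower (10.2% and 12% of all genes). The pulldown over input comparisons called 13 higher and 10 lower at rest with TurboID-PSD95 (14.7% and 16.4% of all genes), 16 and 3 after depolarization (11.2% and 6.84%), 18 and 6 with Pan-TurboID (16.8% and 17.4%), and 44 and 22 of 74 with DHPG (40.5% and 39.3%). In the difference between depolarized and resting pulldown over input of the knockdown experiment, the signalling adaptor Shc2 (-1.28, edgeR adjusted p = 0.028) and Bdnf were the only genes of the list called.

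Over the 24 libraries of the KCl experiment, the genes whose log2 CPM varied most like that of each member were named by Pearson's r over 13018 genes. For Bdnf these were Nefl (r = 0.78), Foxp1 (0.78), Khdrbs3 (0.75), Nefm (0.75) and Chmp6 (0.73). For Ntrk2 they were Nrxn3 (0.91), Wnk2 (0.91), Atp1a4 (0.90), Atp4a (0.88) and Sez6 (0.88), and for Ntrk3 Nell1 (0.87), Cyp4x1 (0.87), Plxna2 (0.86), Lrp1b (0.86) and Atg7 (0.86). Over all 38 libraries r was lower for each of these 15 genes, at 0.23 for Nefl and 0.59 to 0.67 for the other genes named for Bdnf, 0.68 to 0.89 for those of Ntrk2, and 0.52 for Nell1 and 0.71 to 0.79 for the others of Ntrk3. The libraries share groups and replicate numbers, and the values are descriptions.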

How the data were processed

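Footprint libraries of 38 samples in 14 groups were analysed, grouped by the labels' titles. According to their methods and the headers of their files, the authors aligned reads to mm10 and counted 5′ ends of footprints per exon segment with plastid, without an offset. The counts they deposited are integers for each segment of UCSC known genes, from alignments whose names mark ribosomal RNA and duplicates as removed. Molecular identifiers were cut from the reads, but how duplicates were found is not given in the sources used here, and removal by position alone would lower counts in strongly translated regions. RPKM values deposited beside the counts were not used. RPKM given in the text was computed from the counts.

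Segments were summed per transcript, 66664 of 67238 coding transcripts (99.1%) were matched to symbols, and the transcript with the most bases was kept for each of 22401 genes. Tests of CDS counts used edgeR 4.0.16 and R 4.3.3 (quasi-likelihood F test, robust, TMM, filterByExpr, Benjamini-Hochberg over all genes tested, FDR 0.05), and 5′ UTR segments with the CDS library sizes and factors. Fits held 24 libraries for the KCl experiment, 8 for the knockdown, 6 for DHPG, 12 for DHPG against rest and 20 across knockdown. Ratios used a pseudocount of 0.5 and exact permutation tests over libraries. The procedure was tested on simulated data.

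In the KCl experiment, numbers paired input and pulldown libraries within a condition (r of deviations 0.35 to 0.71) and both ligases (0.15 to 0.63), but not resting with depolarized cultures (-0.18 to 0.42), although the methods state that both conditions of a biological replicate were handled together. Blocking on the number changed no call of a member's CDS response to KCl. They did not pair input and pulldown in the DHPG (-0.23 to 0.06) or knockdown experiment (0.0056 to 0.026). Alternatives were scaling, DESeq2 1.42.0, the likelihood ratio test, filters, other transcripts, a replicate block, leaving out replicates and, added after seeing the data, a CDS length trend, a block within each condition, leaving out single depolarized TurboID-PSD95 pulldowns, inputs of a single ligase, the knockdown difference in enrichment and the 5′ UTR ratio test. The members, lists and tests were chosen with earlier results of these data known. All named genes came from the members, a list of the neurotrophin system and the 5 genes with the highest r, apart from Eif4g2, the target of the siRNA, and Gm45346, which overlaps Bdnf. Values of some list genes and a splice junction are not reported here.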

Additional observations from a re-analysis of the deposited data

Results flagged for a closer look

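In the knockdown experiment the pulldown over input of Bdnf differed between depolarized and resting neurons, tested as the difference of the 2 log2 fold changes. The difference, in a comparison added after the data had been seen, was -1.10 (SE 0.31, edgeR adjusted p = 0.0452, DESeq2 adjusted p = 0.0239). It rested on 2 libraries in each of 4 groups. Both resting pulldowns, at 56.9 and 54.6 CPM, lay above both resting inputs, at 42.2 and 38.8 CPM, and both depolarized pulldowns, at 25.6 and 39.0 CPM, lay below both depolarized inputs, at 47.7 and 51.0 CPM. Leaving out a library gave -1.40 to -0.81 and ended the call in 7 of 8 cases, in fits where a group of 1 library is assumed to vary like the others. Removing the trend with CDS length gave -1.001 (adjusted p = 0.0800).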

How the results depend on the processing

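Of 1101 alternative values of 91 results, 973 kept direction and side of the threshold, 65 changed sign and 63 moved otherwise. Among the values that changed sign, 3 passed the threshold. The groups of 2 or 3 libraries limit the precision, and the causes of the changes below were not tested. All values are log2, with edgeR adjusted p in parentheses. Ntrk3 in the depolarized minus resting TurboID-PSD95 pulldown over inputs turned to -0.017 with RLE size factors, to -0.018 with DESeq2, to -0.048 with the longest-CDS or the highest-count transcript and to -0.0034 with the length trend removed. Ntrk2 in the DHPG pulldown over input turned to -0.021 with RLE and DESeq2, -0.020 and -0.019 with the longest-CDS and highest-count transcript, and to -0.20 with CDS totals alone. CDS totals alone also gave 0.075 for Ntrk3 there, -0.40 (0.0103) for Ntrk2 in DHPG against resting pulldowns, 0.46 (0.0704) for Bdnf and -0.35 (0.0333) for Ntrk3 in the resting knockdown pulldown over input, and -0.62 (0.0295) for Bdnf in the depolarized one, where the likelihood ratio test gave -0.52 (0.0440).

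With the trend with CDS length removed, Ntrk2 was at -0.41 in the KCl response of inputs. Ntrk3 was at -0.077 in the TurboID-PSD95 pulldown over inputs at rest, and Bdnf, Ntrk2 and Ntrk3 were at 0.25, -0.22 and -0.081 after depolarization. Bdnf and Ntrk2 were at 0.29 and -0.17 in the Pan-TurboID pulldown over input, and Ntrk2 at -0.010 in TurboID-PSD95 beyond Pan-TurboID. In the DHPG pulldown over input Bdnf, Ntrk2 and Ntrk3 were at -0.16, -0.48 and -0.21. There the values of Ntrk2 and Ntrk3 passed, that of Ntrk3 in the direction opposite to its main call. In knockdown pulldown over input Ntrk3 was at -0.56 (0.0022) at rest, Bdnf and Ntrk3 were at 0.036 and -0.29 after depolarization, and Bdnf was at -1.001 (0.0800) in the difference. The KCl response of Ntrk2 was -0.70 in TurboID-PSD95 inputs alone and -0.42 in Pan-TurboID inputs alone. The number of Bdnf segments called in knockdown inputs was 1 without a filter and with the likelihood ratio test. The kinase over shared difference of Ntrk3 with segments under 60 bases left out was 0.67.

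Pairing by a replicate block gave 0.46 (0.0188) for Ntrk3 in the Pan-TurboID pulldown over input and 0.46 (9.8e-04) with the block within each condition, which gave -0.46 (0.0389) for Bdnf in the resting TurboID-PSD95 pulldown over inputs. The block within each condition called 45% of all genes in the first of these comparisons and 42.9% in the second. In knockdown inputs, where numbers did not pair libraries, the replicate block turned Bdnf exon I to -0.036. The block changed no other call.

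Leaving out 1 replicate or library moved the KCl response of inputs to between -0.25 and 0.11 for Bdnf, -0.78 and -0.42 for Ntrk2 and -0.16 and 0.37 for Ntrk3. The response was -0.13 to 0.41 for Ntrk3 in TurboID-PSD95 pulldowns and -0.58 to 0.029 for Bdnf in Pan-TurboID pulldowns. TurboID-PSD95 pulldown over inputs was -0.16 to 0.030 for Ntrk2 at rest, and -0.29 to 0.011, -0.098 to 0.091 and -0.13 to 0.41 for Bdnf, Ntrk2 and Ntrk3 after depolarization, with differences of -0.094 to 0.25 for Ntrk2 and -0.12 to 0.073 for Ntrk3. Pan-TurboID pulldown over input was -0.12 to 0.10 for Bdnf and 0.38 to 0.57 for Ntrk3, and TurboID-PSD95 beyond it -0.037 to 0.14 for Ntrk2 and -0.079 to 0.062 for Ntrk3. For Ntrk2, DHPG against rest in pulldowns was -0.28 to 0.054 and the DHPG pulldown over input -0.054 to 0.037. In the knockdown experiment, KCl in pulldowns was -1.12 to -0.53, -0.45 to -0.27 and -0.065 to 0.18 for Bdnf, Ntrk2 and Ntrk3. Resting pulldown over input was 0.52 to 0.63 for Bdnf, and the depolarized one -0.83 to -0.24, -0.36 to -0.18 and -0.018 to 0.22 for Bdnf, Ntrk2 and Ntrk3, with a difference of -1.40 to -0.81 for Bdnf. Knockdown minus no knockdown was -0.12 to 0.35 for Ntrk2 in inputs, and -0.11 to 0.37 for Ntrk2 and -0.29 to 0.18 for Ntrk3 in pulldowns. Resting knockdown against resting inputs was -1.22 to -0.91, -0.14 to 0.0090 and 0.60 to 0.74 for Bdnf, Ntrk2 and Ntrk3.

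Among Bdnf segments the same leave-outs gave 0 to 1 calls in knockdown inputs. Exon I was -0.33 to 0.32 in knockdown inputs, -0.40 to 1.13 in inputs, -0.17 to 1.36 in Pan-TurboID and -0.75 to 0.69 in TurboID-PSD95 pulldowns. Exon II was -0.80 to 0.42 in Pan-TurboID and -0.11 to 1.22 in TurboID-PSD95 pulldowns, and exon IV 1.46 to 1.83 in knockdown inputs and -1.02 to 0.13 in Pan-TurboID pulldowns. The 5′ UTR over CDS difference was -0.10 to 1.03 for Bdnf, 0.67 to 0.99 for Ntrk2 and -0.33 to 0.21 for Ntrk3, and relative to all genes -0.34 to 0.80 for Bdnf and 0.44 to 0.71 for Ntrk2. Kinase over shared was 1.08 to 1.14 for Ntrk2 and 0.55 to 0.84 for Ntrk3 between pulldowns and inputs, and -0.071 to 0.13 for Ntrk3 with depolarization. The truncated tail of Ntrk2 was -0.29 to 1.54 between pulldowns and inputs.

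The share of all genes called ranged from 3.91% to 19.5% for KCl in inputs, 0.689% to 11.2% in TurboID-PSD95 and 0.545% to 8.08% in Pan-TurboID pulldowns, 0.121% to 42.9% for resting and 0.129% to 33.2% for depolarized TurboID-PSD95 pulldown over inputs, and 9.69% to 45% for Pan-TurboID, each lowest without replicate 3. It was 19.5% to 36.6% for DHPG against rest in inputs, 9.49% to 22.7% for KCl in knockdown inputs, 1.28% to 5.56% for the knockdown difference in pulldown over input, 0.159% to 1.24% for knockdown minus no knockdown in pulldowns and 0.426% to 10.4% for resting knockdown against resting inputs.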
